A study of Homo sapiens with 12 samples.

Results

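The G1/S and DNA replication genes described here are 47 human genes whose products carry a cell from late G1 into S phase and copy its DNA. They were chosen by name: every row of the deposited count table whose Ensembl identifier belongs to 1 of the 47 listed symbols was taken, without use of its values. All 47 were found among the 60649 identifiers of the table, and all 47 were among the 18119 genes that passed the filter on low counts. They fall into 7 role classes: G1 cyclins, kinases and E2F (9 genes), origin licensing (10), helicase activation (6), polymerases and primase (7), clamp, clamp loader and Okazaki fragment processing (7), nucleotide supply (4), and chromatin and histone supply (4).

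The data are poly(A)-selected, strand-specific RNA sequencing libraries of AC16, a human line made by fusing ventricular cardiomyocytes with SV40-transformed fibroblasts. There were 12 libraries in 4 groups of 3, all labelled with the WT genotype, heart as tissue, cardiomyocyte as cell type and the same batch. Vehicle cells received PBS for 24 h. Acute cells were harvested straight after 24 h with recombinant human IFN-α2a, a type I interferon, at 1000 U/mL. In the recovery group that pulse was followed by 5 days of culture free of the cytokine, and harvest is labelled day 6. In the repeat group the cytokine was given for 24 h, withdrawn for 4 days and given again for 24 h, and harvest is labelled day 7, although the stated times add to 6 days. Because vehicle is labelled 24 h only (the protocol speaks of matching intervals), recovery and repeat cells differ from vehicle and acute cells in labelled culture time too, and the effects of time and of interferon cannot be told apart in those comparisons. Repeat and recovery cells also differ in labelled harvest day (7 and 6), which cannot be told apart from the later pulse either. The replicates are stated to be independent biological replicates, and no label names the culture of each. The p-values rest on the spread between these libraries.

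In textbook outline, mitogen signals raise D-type cyclins, which with CDK4 and CDK6 phosphorylate the retinoblastoma protein RB and free E2F transcription factors. E2F then turns on cyclin E and the genes of the replication machinery, many of which carry E2F sites close to their start. Licensing loads the MCM2-7 helicase on origins in G1, and CDC45, the GINS complex and MCM10 activate it in S phase, when polymerases, clamp and nucleotide enzymes are in use. AC16 cells owe their growth to the SV40 large T antigen, a protein known to bind RB, and type I interferon is known to slow the proliferation of many cell types.

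The promoter letters of the members are shown first because many genes of the set share the regulator E2F in the textbooks. The printed members were also called in opposite directions at the end of the first pulse. RefSeq promoter windows (GRCh38.p14, 250 bases before to 50 after the annotated start, 1 entry per symbol) were matched for 41 of the 47 members. CCNE2, CCND1, CDK2, GINS4, MCM4 and MCM5 were not matched, and 9 members had more than 1 entry, of which the first was used. The E2F-type motif was spelled as TTTCGCGC, TTTCCCGC, TTTGGCGC or TTTGCCGC and searched on both strands. Stretches around the match are printed 5′ to 3′ on the strand of the gene, with the matched letters in capitals. Those of E2F1, E2F2, MCM6, PCNA and POLA1 belong to members lower at the end of the first pulse, and those of CDC25A and CDT1 to members higher.
E2F1, chr20:33686386-33686430, minus strand: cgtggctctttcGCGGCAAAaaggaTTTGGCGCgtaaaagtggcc
E2F2, chr1:23531256-23531287, minus strand: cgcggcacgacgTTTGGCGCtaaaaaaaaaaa
MCM6, chr2:135876510-135876569, minus strand: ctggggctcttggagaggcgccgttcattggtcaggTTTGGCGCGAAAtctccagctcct
PCNA, chr20:5126662-5126693, minus strand: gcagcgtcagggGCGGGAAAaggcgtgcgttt
POLA1, chrX:24693769-24693800, plus strand: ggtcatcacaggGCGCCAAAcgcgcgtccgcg
CDC25A, chr3:48188442-48188473, minus strand: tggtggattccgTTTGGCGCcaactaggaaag
CDT1, chr16:88803742-88803773, plus strand: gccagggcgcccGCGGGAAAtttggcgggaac

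All 7 printed stretches lie before the start and outside the annotated span of their gene. TTTGGCGC is present in the stretches of E2F1, E2F2, MCM6 and CDC25A, and POLA1 holds it on the opposite strand, so the same letters stand before members that were lower and a member that was higher. The capitals of MCM6 cover 2 overlapping matches, 1 on each strand. Its window also held matches at -152 and -148 from the start, which the printed stretch leaves out. An E2F-type match was found in 21 of 41 member windows (51.2%), against 3.33% of 27305 promoters of the same length. In the 250 bases before the start alone it was found in 16 of 41 (39.0%), against 2.79% of all. By call in acute against vehicle cells, it was present in 10 of 15 lower members, 4 of 10 higher members and 7 of 16 members not called. The looser word TTTNNCGC, which contains all 4 spelled motifs, was in 23 of 41 windows (56.1%), against 6.90% of all. The CCAAT box, spelled CCAAT on both strands, was in 21 of 41 (51.2%), against 35.7%. TTTGAA, the core of the cell cycle homology region of G2/M genes, was in 1 of 41, against 15.4%. GAAANNGAA, the core of the element bound by interferon-activated factors, was in 0 of 41, against 8.29%. The 27305 promoters were not matched to those of the members in base composition, gene type or expression. The part of base composition in these gaps was not tested, so they are not read as particular to the members. Each match is a description of letters and says nothing of whether a factor binds there.

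**Figure D1:**
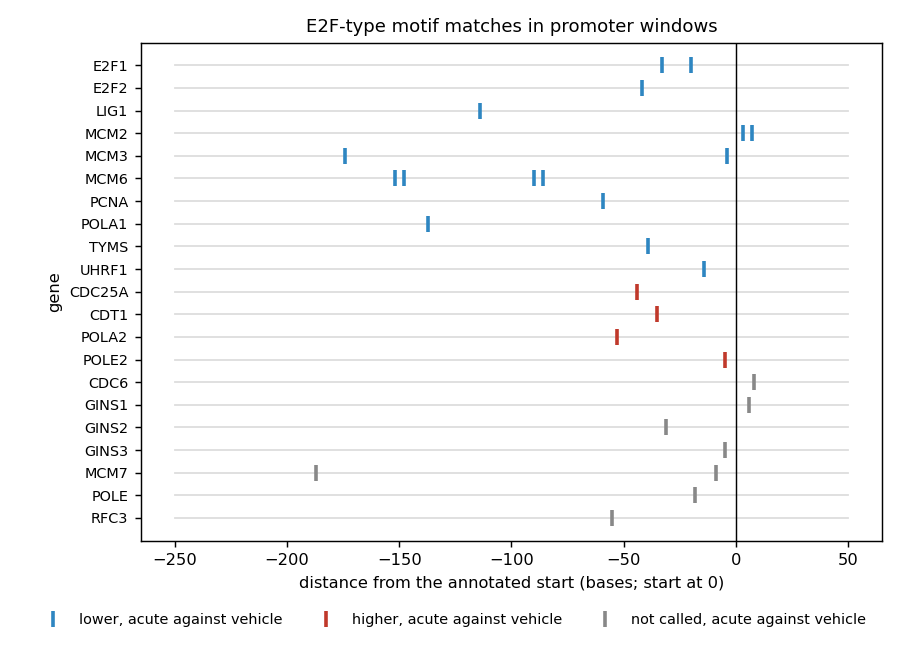
Position of each E2F-type match (vertical tick) in the promoter window of the 21 members that hold one, in bases from the annotated start at 0, coloured by the call in acute against vehicle cells. The 10 lower, 4 higher and 7 not called members all have a match within the window, and most ticks lie between the start and the 250 bases before it.

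The libraries held 39.9 to 62.3 M estimated counts each (1 M is 1000000), with a biological coefficient of variation of 2.67% in the fit. On the principal component with the most variance (40%) libraries separated by presence of interferon at harvest, and on the next (8.05%) acute replicate 2 lay farthest from the rest at -31.0. Of 11 cardiomyocyte markers 1 passed the filter and 10 were under 1 TPM in every library, with summed levels of 0.462 to 1.48 TPM, so the defining transcripts of the labelled cell type were at or near 0. All 9 fibroblast and stromal markers passed, at a summed 4647 to 5012 TPM. The 5 interferon response genes used as a check of the labels (MX1, OAS1, IFIT1, ISG15 and IFI44L) were higher after both pulses. In recovery cells MX1, OAS1, IFIT1 and ISG15 averaged 7.68, 2.04, 43.3 and 67.0 CPM (counts per 1000000, TMM-scaled). Their vehicle means were 3.55, 0.419, 30.8 and 46.4 CPM, and no recovery library overlapped a vehicle library. IFI44L averaged 0.677 CPM in recovery and 0.450 in vehicle cells, with overlap. Counting by strand is not given in the sources used here, and 16 members overlap another protein-coding gene, such as TYMS with ENOSF1 and CCND1 with LTO1. Of the 47, 8 have named pseudogenes (PCNA, RRM2, TYMS, FEN1, CDK4, ORC1, RFC3 and RFC5), so reads of those members may be shared with their copies.

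At the end of the first pulse the set moved in both directions, by little. CCND1 and CCNE1, the cyclins of G1 and of the step into S phase, rose most, and GINS4, a helicase subunit, with the transcription factors E2F2 and E2F1 fell most. Of the 47 members, 18 were lower (38.3%) and 11 higher (23.4%) in acute than in vehicle cells at a Benjamini-Hochberg adjusted p under 0.05 (edgeR quasi-likelihood test over all 18119 genes), and 18 were not called. Across all genes tested, 21.5% were lower and 22.3% higher. Among the 7871 genes with a mean of at least 20 CPM (counts per 1000000, TMM-scaled), 31% were lower and 33.8% higher. The members' median log2 fold change was -0.02 and their median absolute change 0.092, against 0.175 for all genes and 0.127 for genes of at least 20 CPM. Of the 29 calls, 21 were of under 0.2 on the log2 scale, and only CCND1, CCNE1 and GINS4 changed by 0.5 or more. Together the members took 0.664 to 0.668% of the counts of vehicle libraries, 0.649 to 0.655% of acute, 0.668 to 0.672% of recovery and 0.663 to 0.674% of repeat libraries. In bulk RNA a change in the share of cells in S phase and a change in RNA per cell cannot be told apart. Markers of several cell types differed with the pulse. The 5 leukocyte markers summed to 111 to 117 TPM in vehicle, 270.1 to 295 in acute, 138 to 146 in recovery and 275 to 286 in repeat libraries, with CD3E at 0 in every library and nearly all of the sum from CD68. The 4 smooth muscle markers summed to 461 to 472, 572 to 623, 396 to 411 and 505 to 514 TPM in these groups, and TAGLN alone was higher after the first pulse (427 to 437 TPM in vehicle and 544 to 592 in acute), while ACTA2 was at 9.56 to 10.4 and 8.80 to 9.80 and CNN1 at 20.7 to 24.5 and 19.9 to 21.3. Among the 9 fibroblast and stromal markers the sum hid opposite differences. VIM was at 2164 to 2273 TPM in vehicle and 2714 to 2749.99 in acute libraries, while PDGFRB was at 48.3 to 51.4 and 27.7 to 31.2, LUM at 23.2 to 25.3 and 12.5 to 13.6, DCN at 149 to 175 and 92.6 to 109.8, COL3A1 at 385 to 456 and 279 to 322, COL1A1 at 1417 to 1472 and 1083 to 1159, and COL1A2 at 356 to 375 and 315 to 321. Their part in the members' differences was not tested. In each of the 25 settings tried (other tools, scalings and filters, log2 TPM, and each library left out), 8 members stayed lower (E2F1, E2F2, GINS4, MCM2, MCM6, TK1, TYMS and UHRF1) and 3 higher (CCND1, CCNE1 and ORC6). Each of the other 18 calls was lost under at least 1 of the log2 TPM settings.

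**Figure D2:**
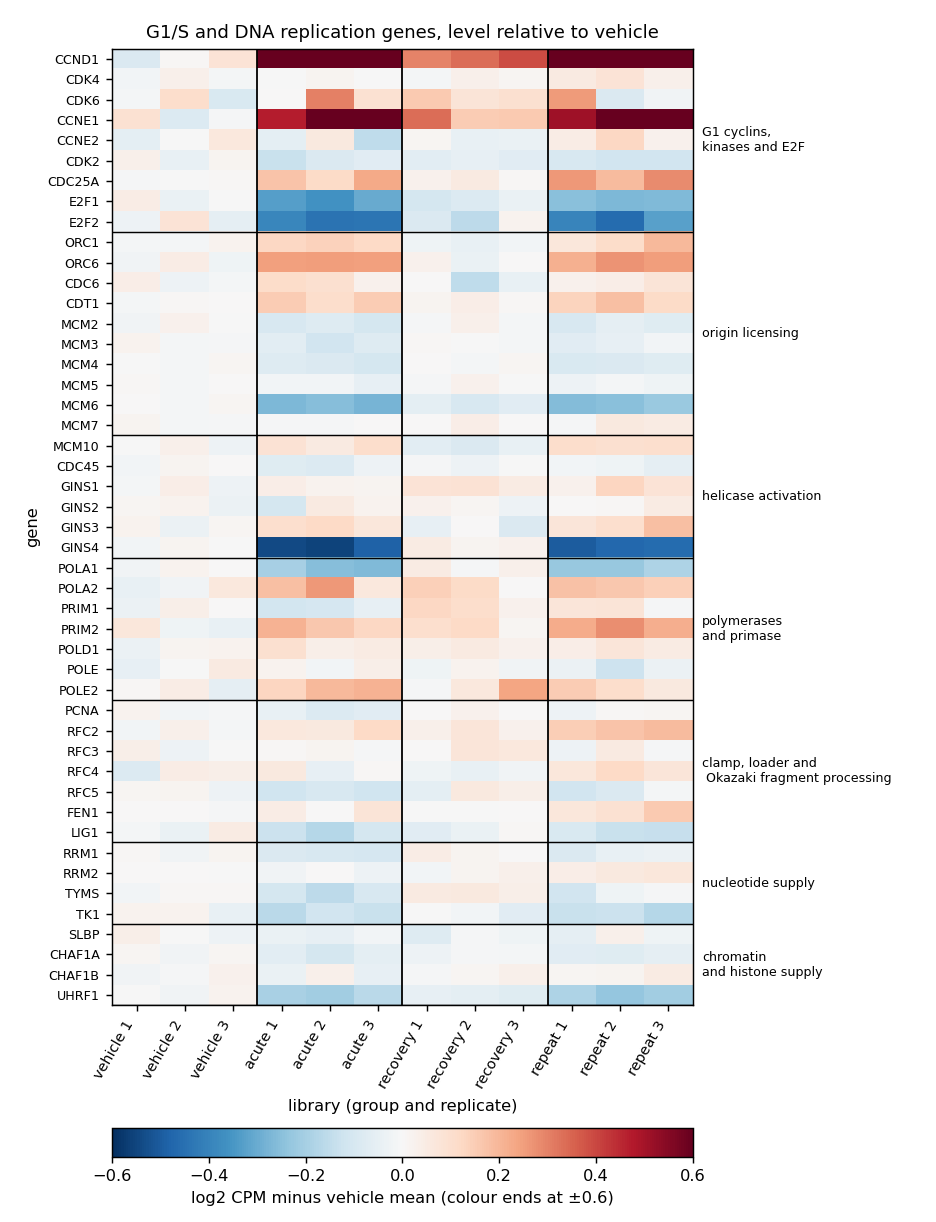
Level of each of the 47 members (rows, by role class) in each of the 12 libraries (columns), as log2 CPM minus the mean of the 3 vehicle libraries, with colours ending at ±0.6. The dark red rows of CCND1 and CCNE1 and the blue rows of GINS4, E2F1 and E2F2 appear in acute and repeat libraries, while recovery columns are pale apart from CCND1 and, less so, CCNE1.

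Among the G1 cyclins, kinases and E2F genes, 3 of 9 rose and 3 fell at the first pulse, and at the later pulse (repeat against recovery cells) 3 rose and 2 fell. Over all genes tested, 22.3% rose and 21.5% fell at the first pulse, and 21.1% and 20.5% at the later. Among genes of at least 20 CPM 33.8% rose and 31% fell at the first pulse, and 32.2% and 30.6% at the later. These shares also stand beside the counts of the other role classes. CCND1 (chr11:69641156-69654474) encodes cyclin D1, which activates CDK4 and CDK6. Its levels were 250.3, 267 and 281 CPM in the vehicle libraries, 462, 459.7 and 484 in the acute, 327, 336 and 349 in the recovery and 510.2, 508 and 517 in the repeat libraries. Every library harvested right after a pulse was above every recovery library, and every recovery library above every vehicle library. The rise was 0.82 ± 0.037 on the log2 scale at the first pulse (adjusted p = 5.39e-10, edgeR quasi-likelihood test) and 0.60 ± 0.037 at the later one (adjusted p = 1.4e-08). CCNE1 (chr19:29811991-29824312), encoding cyclin E1, the partner of CDK2, was the lowest of the 47 in CPM, at 3.01, 2.67 and 2.81 CPM in the vehicle libraries, 3.92, 4.61 and 4.43 in the acute, 3.56, 3.14 and 3.16 in the recovery and 4.03, 4.40 and 4.66 in the repeat libraries. Its acute and repeat libraries all lay above all vehicle and recovery libraries. The log2 fold change was 0.60 ± 0.11 at the first pulse (adjusted p = 5.24e-05) and 0.41 ± 0.11 at the later (adjusted p = 0.00286).

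E2F1 and E2F2, the activator E2F genes among the 47, went the other way. E2F2 (chr1:23506438-23531233) was at 25.4, 27.5 and 24.99 CPM in the vehicle libraries, 19.8, 19.1 and 19.1 in the acute, 24.4, 23.3 and 26.3 in the recovery and 19.7, 18.8 and 20.7 in the repeat libraries. No acute or repeat library reached the lowest vehicle or recovery library. It fell by 0.42 ± 0.05 on the log2 scale at the first pulse (adjusted p = 6.26e-08) and by 0.33 ± 0.05 at the later (adjusted p = 3.9e-06). On log2 TPM the later change was -0.20 with an adjusted p of 0.335 (limma), so that call was lost. The first change was -0.64 on log2 TPM (adjusted p = 0.00594, limma). E2F1 (chr20:33675477-33686385), the founding member of the family, averaged 105 ± 3.04 CPM in vehicle, 83.6 ± 1.75 in acute, 99.9 ± 2.43 in recovery and 87.8 ± 0.589 in repeat cells (SD, n = 3 each). Its log2 fold changes were -0.33 ± 0.027 (adjusted p = 3.93e-11) and -0.19 ± 0.027 (adjusted p = 1.47e-06), without overlap between the groups in either.

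CDC25A, the phosphatase that removes the inhibitory phosphates of CDK2, rose by 0.17 and 0.21 at the first and later pulse (adjusted p = 0.00014 and 6.73e-06). On log2 TPM the adjusted p-values were 0.0504 and 0.0816 (limma), past the threshold in neither. CDK2 itself fell by 0.10 at the first pulse (adjusted p = 0.00206) and had a value of -0.05 at the later (adjusted p = 0.131). CDK4 and CDK6, the kinases that pair with cyclin D1, were not called: CDK4 had log2 fold changes of 0.00 ± 0.024 and 0.05 ± 0.024. CDK6 had 0.13 ± 0.11 and -0.05 ± 0.11, a standard error about as large as that of CCNE1. CCNE2, the other cyclin E gene, was not called either, at -0.05 ± 0.046 and 0.09 ± 0.045. CCND1 and CCNE1 were thus called higher while no kinase of the set was.

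**Figure D3:**
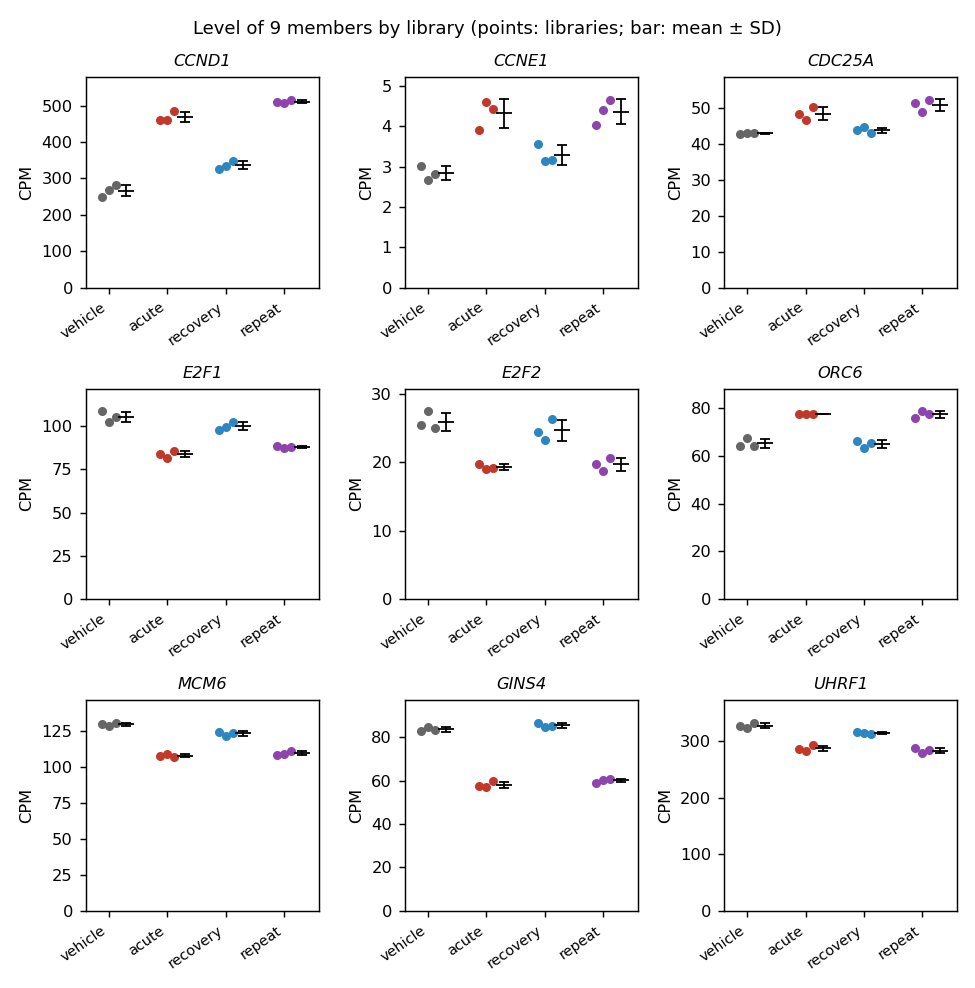
CPM of 9 members in each library (points), with the mean ± SD of the 3 libraries of each group beside them and every axis starting at 0. CCND1, CCNE1, CDC25A and ORC6 stand higher and E2F1, E2F2, MCM6, GINS4 and UHRF1 lower in acute and repeat than in vehicle and recovery libraries.

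Origin licensing genes split: at the first pulse 4 of 10 fell and 3 rose, and at the later 3 fell and 4 rose. Those that fell were all subunits of the loaded helicase, and those that rose were all loading factors. MCM6 (chr2:135839626-135876443), 1 of the 6 subunits of the replicative helicase, was at 130.3, 129 and 131 CPM in the vehicle libraries, 108, 109 and 107 in the acute, 125, 122 and 124 in the recovery and 109, 109 and 111 in the repeat libraries. Acute and repeat libraries were all below recovery libraries, which were all below vehicle libraries. The fall was 0.27 ± 0.023 on the log2 scale at the first pulse (adjusted p = 1.11e-10) and 0.17 ± 0.023 at the later (adjusted p = 4.55e-07). The other helicase subunits moved less, with first-pulse changes of -0.09 for MCM2, -0.09 for MCM3 and -0.09 for MCM4, all called lower, and -0.03 for MCM5 and 0.00 for MCM7, not called. At the later pulse MCM2 and MCM4 were called again (-0.08 and -0.08), and MCM3 was not (-0.04, adjusted p = 0.137).

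ORC6 (chr16:46689643-46698394), a subunit of the origin recognition complex, was at 64.4, 67.4 and 64.2 CPM in the vehicle libraries, 77.5, 77.6 and 77.6 in the acute, 66.4, 63.5 and 65.4 in the recovery and 75.8, 78.8 and 77.8 in the repeat libraries. The 6 libraries harvested after a pulse all lay above the other 6. It rose by 0.25 ± 0.028 (adjusted p = 2.64e-08) and by 0.25 ± 0.028 (adjusted p = 2e-08) on the log2 scale. ORC1, the largest subunit of the same complex, was at 51.3, 51.3 and 52.6 CPM in the vehicle libraries, 56.3, 56.9 and 56.1 in the acute, 50.9, 50.2 and 51.1 in the recovery and 54.3, 55.9 and 59.2 in the repeat libraries. Its rises were 0.13 ± 0.032 (adjusted p = 0.00176) and 0.15 ± 0.032 (adjusted p = 0.00021), with no overlap in either pulse. CDT1, which brings the MCM helicase to origins, rose by 0.14 and 0.12 (adjusted p = 2.23e-05 and 8.62e-05). CDC6, its partner in loading, was not called at the first pulse (0.08, adjusted p = 0.0564) and was higher at the later (0.11, adjusted p = 0.00782). CDC6 was called higher at the first pulse without vehicle replicate 1, acute replicate 3 or recovery replicate 1 or 2, and its later call was lost without recovery replicate 2 (adjusted p = 0.0782). The later calls of CDC6 and CDT1 were lost on log2 TPM and with an offset for gene length.

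Of the 6 helicase activation genes 2 were lower and 1 higher at the first pulse, 1 and 2 at the later, and the largest change was in 1 of the 4 GINS subunits. GINS4, the subunit also called SLD5, was at 82.7, 84.7 and 83.5 CPM in the vehicle libraries, 57.5, 56.9 and 59.7 in the acute, 86.6, 84.6 and 85.1 in the recovery and 59.1, 60.3 and 60.8 in the repeat libraries. Every acute and repeat library lay below every vehicle and recovery library. It fell by 0.53 ± 0.027 on the log2 scale (adjusted p = 2.77e-15) and by 0.51 ± 0.027 (adjusted p = 4.5e-15). GINS1 and GINS2 were not called in either pulse, with log2 fold changes of 0.03 and 0.01 for GINS1 and -0.01 and 0.02 for GINS2. GINS3 was at 28.3, 27.2 and 28.1 CPM in the vehicle libraries, 29.9, 30.2 and 29.2 in the acute, 26.9, 27.9 and 26.3 in the recovery and 29.3, 29.8 and 31.6 in the repeat libraries. It had a change of 0.10 ± 0.04 at the first pulse (adjusted p = 0.0549, not called) and rose by 0.16 ± 0.04 at the later (adjusted p = 0.00142). The subunits of this obligate complex thus had calls of opposite sign at the later pulse (GINS4 and GINS3). The GINS3 call was lost on log2 TPM and with an offset for gene length, and a difference between subunits was not itself tested.

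MCM10, which helps the assembled helicase start to unwind, was at 79.5, 81.2 and 77.9 CPM in the vehicle libraries, 84.6, 82.6 and 85.7 in the acute, 76.1, 74.9 and 77.02 in the recovery and 85.6, 84.9 and 85.3 in the repeat libraries. It rose by 0.08 ± 0.026 (adjusted p = 0.00917) and 0.17 ± 0.026 (adjusted p = 5.04e-06), without overlap of the groups compared. The first of these calls was lost without vehicle replicate 3 or acute replicate 3 (adjusted p = 0.0605 and 0.0531). Both calls were lost on log2 TPM and with an offset for gene length. CDC45, which binds MCM2-7 and GINS in the working helicase, was lower by 0.06 at the first pulse (adjusted p = 0.0464), near the threshold, and not called at the later (-0.02, adjusted p = 0.625). The CDC45 call was lost with DESeq2 (adjusted p = 0.0958) and on leaving out any 1 vehicle library, acute replicate 1 or 2 or recovery replicate 2.

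Of the 7 polymerase and primase genes 1 was lower and 3 higher at the first pulse, 1 and 1 at the later, and the directions divided within 1 complex. POLA1 (chrX:24693873-24996986), the catalytic subunit of the polymerase that makes the initial DNA of each fragment, was at 61.4, 63.2 and 62.3 CPM in the vehicle libraries, 54.2, 52.3 and 51.9 in the acute, 64.5, 62.1 and 63.5 in the recovery and 53.2, 53.3 and 54.7 in the repeat libraries. All acute and repeat libraries were below all vehicle and recovery libraries. It fell by 0.24 ± 0.029 (adjusted p = 1.32e-07) and 0.24 ± 0.029 (adjusted p = 1.04e-07) on the log2 scale. On log2 TPM the changes were -0.18 and -0.16, with adjusted p-values of 0.101 and 0.154 (limma), not called. POLA2, its accessory subunit, was at 57.96, 58.8 and 62.3 CPM in the vehicle libraries, 67.7, 71.5 and 62.3 in the acute, 65.8, 64.7 and 59.7 in the recovery and 67.5, 66.8 and 65.9 in the repeat libraries. Its rise of 0.17 ± 0.047 at the first pulse (adjusted p = 0.00779) came with overlapping groups, since acute replicate 3 and vehicle replicate 3 were level. At the later pulse it had a value of 0.07 ± 0.046 (adjusted p = 0.228).

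PRIM2, the regulatory subunit of primase, the enzyme that lays RNA primers, rose by 0.16 and 0.16 (adjusted p = 0.00067 and 0.000553), a call lost on log2 TPM. PRIM1, the catalytic subunit, was not called on counts, at -0.09 ± 0.044 (adjusted p = 0.115) and -0.04 ± 0.042. On log2 TPM its first-pulse change was -0.38 (adjusted p = 0.00603, limma), with TPM of 29.9 ± 1.46 in vehicle and 22.9 ± 1.18 in acute cells (SD, n = 3 each). PRIM1 overlaps 3 other protein-coding genes. POLE2, a subunit of the leading strand polymerase, was at 11.7, 12.04 and 11.3 CPM in the vehicle libraries, 12.8, 13.4 and 13.5 in the acute, 11.6, 12.2 and 13.7 in the recovery and 12.95, 12.5 and 12.1 in the repeat libraries. It rose by 0.18 ± 0.061 at the first pulse (adjusted p = 0.0194), while recovery replicate 3 was above every acute library and the later change was 0.00 ± 0.059 (adjusted p = 0.982). The first POLE2 call was lost with DESeq2 (adjusted p = 0.0614) and without vehicle replicate 3, acute replicate 2 or acute replicate 3. The catalytic subunits of the other replicative polymerases were not called in either pulse, with 0.06 and 0.01 for POLD1 and 0.01 and -0.06 for POLE. POLD1 was called higher at the first pulse without acute replicate 2 or without repeat replicate 2 (adjusted p = 0.0426 and 0.0457).

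The clamp, clamp loader and Okazaki fragment genes moved little: 3 of 7 were lower and 1 higher at the first pulse, 2 and 3 at the later. LIG1, the ligase that seals Okazaki fragments, was at 112, 109.8 and 117 CPM in the vehicle libraries, 103, 100.3 and 105 in the acute, 108, 109.7 and 113 in the recovery and 106, 103 and 103 in the repeat libraries. It was lower by 0.13 ± 0.027 (adjusted p = 0.000167) and 0.09 ± 0.027 (adjusted p = 0.00939), and the groups did not overlap in either pulse. Both LIG1 calls were lost on log2 TPM, and the later one without recovery replicate 3 (adjusted p = 0.0753). RFC2, a subunit of the loader that places the PCNA ring on DNA, was at 61.1, 63 and 61.2 CPM in the vehicle libraries, 64.5, 64.3 and 67.02 in the acute, 63.2, 65 and 62.97 in the recovery and 68.4, 69.6 and 70.4 in the repeat libraries. It rose by 0.08 ± 0.028 (adjusted p = 0.0238) and 0.12 ± 0.028 (adjusted p = 0.000568). The earlier of these was lost with DESeq2 (adjusted p = 0.0615) and without vehicle replicate 1, vehicle replicate 3 or acute replicate 3. RFC4, another loader subunit, was at 48.8, 53.2 and 52.8 CPM in the vehicle libraries, 53.6, 49.9 and 51.8 in the acute, 50.7, 50.04 and 50.8 in the recovery and 54.1, 55.98 and 54.3 in the repeat libraries. It was not called at the first pulse (0.01 ± 0.035) and rose at the later (0.12 ± 0.034, adjusted p = 0.00625). The later calls of RFC2 and RFC4 were lost on log2 TPM and with an offset for gene length. RFC5 fell in both (-0.11 and -0.08, adjusted p = 0.00968 and 0.0493), with overlapping groups at the later pulse, where DESeq2 gave an adjusted p of 0.0971 and the call was lost without any 1 library except recovery replicate 1 or repeat replicate 3. RFC3 was called in neither pulse (0.01 and -0.04). PCNA, the sliding clamp and a common marker of proliferation, was lower by only 0.06 at the first pulse (adjusted p = 0.0154, lost without vehicle replicate 1 or acute replicate 2) and not called at the later (-0.02, adjusted p = 0.602). FEN1, the flap nuclease of Okazaki fragments, had 0.04 at the first pulse (adjusted p = 0.16) and rose by 0.11 at the later (adjusted p = 0.000474).

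Of the 4 nucleotide supply genes 3 were lower and 0 higher in each pulse. TK1, the S-phase thymidine kinase of the salvage route, was at 247, 247 and 236 CPM in the vehicle libraries, 218, 225 and 222 in the acute, 243, 240.4 and 232 in the recovery and 222, 223 and 216 in the repeat libraries. TYMS, which makes thymidylate, was at 281, 285 and 285 CPM in the vehicle libraries, 264, 255 and 265 in the acute, 294, 295 and 291 in the recovery and 262, 279 and 282 in the repeat libraries. RRM1, the large subunit of ribonucleotide reductase, was at 205, 201 and 207 CPM in the vehicle libraries, 192, 191 and 191 in the acute, 211, 207 and 205 in the recovery and 193, 199 and 199.7 in the repeat libraries. In these 3 genes every acute library was below every vehicle library, and every repeat library was below every recovery library. Changes were -0.14 ± 0.024 and -0.12 ± 0.024 for TK1 (adjusted p = 2.12e-05 and 0.000194). For TYMS they were -0.12 ± 0.024 and -0.10 ± 0.024 (adjusted p = 0.000213 and 0.00174), and for RRM1 -0.09 ± 0.022 and -0.08 ± 0.022 (adjusted p = 0.000813 and 0.00572). RRM2, the small subunit of the same reductase and the one that limits its activity in S phase, was not called in either pulse, at -0.02 and 0.04, though an offset for gene length called it lower at the first (adjusted p = 0.0114).

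Of the chromatin and histone supply genes, 2 of 4 were lower at the first pulse and 1 at the later, and 0 were higher in either. UHRF1 (chr19:4903080-4962154), which reads hemimethylated DNA behind the fork, moved most. Its levels were 327, 323 and 332 CPM in the vehicle libraries, 286, 283 and 292 in the acute, 316, 314 and 312 in the recovery and 288, 278 and 283 in the repeat libraries. Acute and repeat libraries were all below all recovery libraries, and these below all vehicle libraries. It fell by 0.19 ± 0.021 (adjusted p = 1.82e-08) and 0.15 ± 0.021 (adjusted p = 1.07e-06) on the log2 scale. CHAF1A, the large subunit of the assembly factor that places histones on new DNA, was at 130.5, 128 and 130.3 CPM in the vehicle libraries, 124, 120.2 and 124 in the acute, 127, 129 and 129 in the recovery and 124, 123 and 125 in the repeat libraries. It was lower at the first pulse (-0.08 ± 0.023, adjusted p = 0.00853) and not called at the later (-0.05 ± 0.023, adjusted p = 0.0875). CHAF1B, its partner subunit, and SLBP, which binds the stem-loop of histone mRNAs, were called in neither, at -0.02 and 0.01 for CHAF1B and -0.04 and 0.02 for SLBP.

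The later pulse was measured in libraries that the first comparison did not use, and no member was called in opposite directions. In repeat against recovery cells 13 of 47 members were lower (27.7%) and 13 higher (27.7%), while 20.5% of all genes tested were lower and 21.1% higher. Among genes of at least 20 CPM 30.6% were lower and 32.2% higher. The 2 comparisons share no library. Of the members, 13 were lower in both pulses and 9 higher in both, 0 were called in opposite directions, 7 were called at the first pulse only, 4 at the later only and 14 in neither. The 13 lower in both were 72.2% of those lower at the first pulse and 100% of those lower at the later. The 9 higher in both were 81.8% of those higher at the first pulse and 69.2% of those higher at the later. Over the 47 genes, which are not independent replicates, the 2 sets of log2 fold changes had a Pearson r of 0.94 and a Spearman rho of 0.88, and r was 0.91 over the 45 genes without CCND1 and CCNE1. Over all 18119 genes tested the Pearson r was 0.66 and the Spearman rho 0.69. Of these genes 10 were called in opposite directions, 77.7% of those lower and 76.4% of those higher at the first pulse were called likewise at the later, and 81.2% and 80.9% in reverse. Among the 7871 genes of at least 20 CPM these shares were 84.6%, 82.4%, 85.8% and 86.6%, with an r of 0.98 and a rho of 0.93. Nothing particular to the members is read from their agreement.

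**Figure D4:**
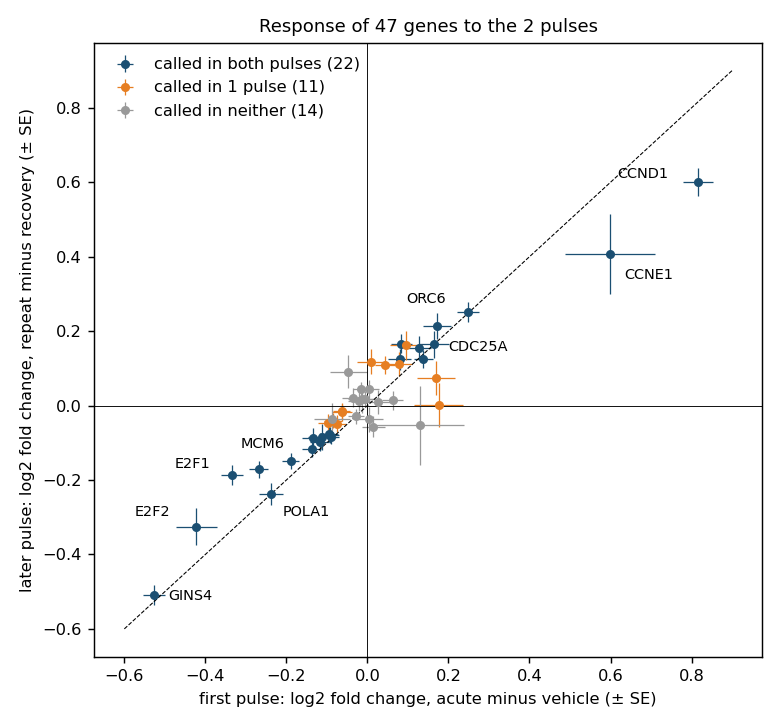
Log2 fold change of each of the 47 members at the first pulse (horizontal, acute minus vehicle) and at the later pulse (vertical, repeat minus recovery), with standard errors as bars and the line of equal change dashed. The 22 members called in both pulses have the same sign on both axes, and CCND1, CCNE1, E2F1 and MCM6 lie nearer to 0 on the vertical than on the horizontal axis.

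Whether the later response differed from the first was tested as an interaction, the later change minus the first. No member passed: 0 were lower and 0 higher (edgeR quasi-likelihood test), against 0.43% and 0.221% of all genes tested. An unadjusted p under 0.05 in either direction was found for 7 members, against 1911 of 18119 genes tested. DESeq2 called 1 lower and 0 higher. That 1 was CCND1, whose difference was -0.22 ± 0.052 on the log2 scale, with an adjusted p of 0.114 with edgeR and 0.000623 with DESeq2. It was called lower too without vehicle replicate 1 (adjusted p = 0.0473) and without vehicle replicate 3 (adjusted p = 0.00151), and not on log2 TPM (adjusted p = 0.267, limma). E2F1 had a difference of 0.15 ± 0.038 (adjusted p = 0.0778), MCM6 0.10 ± 0.032 (adjusted p = 0.218) and CCNE1 -0.19 ± 0.15 (adjusted p = 0.733). GINS4 and ORC6 had differences of 0.02 ± 0.038 and 0.00 ± 0.04, smaller than their standard errors.

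After 5 days without interferon the members had come back to near their vehicle levels. In recovery against acute cells 9 were lower and 17 higher, while 20.7% and 20.4% of all genes were. The shares among genes of at least 20 CPM were not taken for this comparison, so no excess is read from these counts. This comparison shares the acute libraries with the first, so its calls are not independent of those above. The falls included CCND1 (-0.47 ± 0.037), CCNE1 (-0.39 ± 0.11) and ORC6 (-0.25 ± 0.028), and the rises GINS4 (0.56 ± 0.027), E2F2 (0.35 ± 0.051), E2F1 and POLA1 (0.26 ± 0.027 and 0.26 ± 0.03). PRIM1, not called at the first pulse, was higher by 0.17 (adjusted p = 0.00201).

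Against vehicle, CCND1 was the 1 member still called in recovery cells, at 0.34 ± 0.037 on the log2 scale (adjusted p = 7.39e-05, edgeR quasi-likelihood test), and its call held in each of the 25 settings tried, with values from 0.30 to 0.38. It averaged 266 ± 15.5 CPM in vehicle and 337 ± 10.8 in recovery cells (SD, n = 3 each), without overlap. Of all genes tested 3.03% were higher and 2.91% lower in recovery than in vehicle cells. No member was called lower by edgeR or DESeq2. An unadjusted p under 0.05 in either direction was found for 7 of 47, against 3080 of 18119 genes tested. MCM6 came closest, at -0.07 ± 0.023 (adjusted p = 0.0502), and was called lower with RLE scaling (adjusted p = 0.0466) and with only the vehicle and recovery libraries in the fit (adjusted p = 0.038). Without acute replicate 2 or any 1 repeat library it was called lower as well, with an adjusted p from 0.0363 to 0.0493. E2F1 (-0.08 ± 0.027, adjusted p = 0.0927) and UHRF1 (-0.06 ± 0.021, adjusted p = 0.101) also had negative values. Of the 47 members 43 were within 0.1 of vehicle on the log2 scale and 45 within 0.15, and CCNE1 had 0.21 ± 0.11 (adjusted p = 0.36). The vehicle libraries were labelled 24 h, so residual interferon response and time in culture cannot be told apart in these values.

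At the end of the later pulse the levels were close to those at the end of the first. In repeat against acute cells 13 members had an unadjusted p under 0.05 in either direction (edgeR quasi-likelihood test), against 3072 of 18119 genes tested. DESeq2 called 0 members lower. After adjustment edgeR called 0 members lower and 1 higher, against 2.43% and 1.77% of all genes tested. The 1 member was RRM2, at 544, 545 and 543 CPM in the vehicle libraries, 537, 545 and 532 in the acute, 537, 550.4 and 556 in the recovery and 559, 566 and 569.7 in the repeat libraries. All 3 repeat libraries were above all 3 acute libraries. Its rise was 0.07 ± 0.02 (adjusted p = 0.0382), and the call was lost on log2 TPM (adjusted p = 0.238, limma) and on leaving out any 1 acute library, vehicle replicate 2, recovery replicate 2 or repeat replicate 2 or 3. The RRM2 call was lost as well with an offset for gene length and with only the acute and repeat libraries in the fit. That last fit called CCND1 higher instead (0.13, adjusted p = 0.00493, edgeR quasi-likelihood test). Without repeat replicate 1 there were 5 members called higher: RRM2, FEN1, PCNA, RFC2 and TYMS. CCND1 had 0.13 ± 0.036 (adjusted p = 0.0751), was called higher with DESeq2 (adjusted p = 0.00496) and without vehicle replicate 1 or 3 (adjusted p = 0.00482 and 0.00701), and had 0.01 on log2 TPM. In repeat against vehicle cells 13 members were lower and 15 higher, against 22.9% and 23.4% of all genes tested, with CCND1 at 0.94 ± 0.037 and GINS4 at -0.48 ± 0.027 at the ends. Here too the shares among genes of at least 20 CPM were not taken.

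The pathway around the set was read from 74 further genes in 6 lists, of which 72 passed the filter (CDKN1C and CCND2 did not). At the first pulse 23 were lower (31.9%) and 20 higher (27.8%). Of all genes tested 21.5% were lower and 22.3% higher, and of those of at least 20 CPM 31% and 33.8%. At the later pulse 23 were lower and 22 higher, against 20.5% and 21.1% of all genes tested. Among genes of at least 20 CPM 30.6% and 32.2% were. These shares also stand beside the counts of the single lists below. The inhibitors of the cyclin-dependent kinases and the RB family act upstream of the members, and 7 of 9 tested were lower and 1 higher at the first pulse, 6 and 1 at the later. CDKN2B, encoding the CDK4 and CDK6 inhibitor p15, was at 61.1, 58.9 and 52.4 CPM in the vehicle libraries, 24.9, 23.6 and 24.2 in the acute, 45.9, 40.6 and 41.7 in the recovery and 22.3, 22.02 and 20.5 in the repeat libraries. All acute and repeat libraries were below all recovery libraries, and these below all vehicle libraries. It fell by 1.24 ± 0.059 (adjusted p = 1.29e-10) and 0.98 ± 0.061 (adjusted p = 3.41e-09) on the log2 scale, and was -0.43 ± 0.055 from vehicle in recovery cells (adjusted p = 0.000171). CDKN2C, encoding p18 of the same family, fell by 0.50 and 0.39 and was at 0.02 in recovery. CDKN1A, encoding p21, rose by 0.14 and 0.19 (adjusted p = 0.00245 and 8.4e-05), calls that were lost on log2 TPM. In recovery cells 4 of the 9 were lower than in vehicle, against 2.91% of all genes tested. They were CDKN2B, CDKN1A (-0.13), CDKN1B (-0.12) and CDKN2A (-0.12), of which CDKN1B and CDKN2A are named after their values were seen. The CDKN1A call in recovery was lost without any 1 vehicle or recovery library except vehicle replicate 3 (adjusted p from 0.0584 to 0.118), and that of CDKN2B on log2 TPM.

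Among other E2F, DP and cyclin genes 4 of 11 tested fell and 3 rose at the first pulse. TFDP2, a partner that E2F proteins need to bind DNA, fell by 0.66 and 0.66 at the 2 pulses. MYBL2, an E2F target that drives later cell cycle genes, fell by 0.27 and 0.18 and stayed lower in recovery cells (-0.17 ± 0.021, adjusted p = 2.57e-06). CCND3, encoding cyclin D3, rose by 0.29 and 0.26, beside the rise of CCND1, and E2F4, a repressor E2F, by 0.22 and 0.12. Of 16 other origin and helicase factors 2 fell and 4 rose, among them WDHD1 and DONSON (-0.14 and -0.12) and ORC5 and MTBP (0.26 and 0.18). Of 13 other polymerase, clamp and RPA genes 4 fell and 1 rose, with POLD4 and POLE4 at -0.22 and -0.19 and CHTF18 at 0.09. Fork protection and checkpoint genes gave 2 falls and 5 rises of 10. TIPIN, which keeps the fork stable, rose by 0.36 and 0.34, ATR, the kinase that senses stalled forks, by 0.28 at the first pulse, and WEE1 and SKP2 fell by 0.19 and 0.09. ATR was not called at the later pulse, though it was called higher without repeat replicate 3 (0.12, adjusted p = 0.0356). In recovery cells ATR was called higher than in vehicle. That call was lost with DESeq2 (0.16, adjusted p = 0.0646) and without any 1 vehicle library or recovery replicate 1 or 3. The call of SKP2 was lost without vehicle replicate 1 or acute replicate 3, and that of CHTF18 without vehicle replicate 2, acute replicate 1 or 3, recovery replicate 1 or 3 or repeat replicate 3 and with DESeq2.

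Nucleotide metabolism outside the set held the gene of the pathway lists that moved most, with 4 of 13 genes lower and 6 higher at the first pulse. SAMHD1, an enzyme that breaks down deoxynucleoside triphosphates and limits virus replication, was at 62.2, 58.4 and 58.7 CPM in the vehicle libraries, 393, 394 and 388 in the acute, 63.1, 58.3 and 62.1 in the recovery and 373, 376 and 374 in the repeat libraries. The 6 libraries taken after a pulse lay far above the other 6, with log2 fold changes of 2.71 ± 0.027 and 2.61 ± 0.027. DTYMK, the kinase after TYMS and TK1, fell by 0.23 and 0.25, and NME1, a nucleoside diphosphate kinase, rose by 0.29 and 0.30.

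For comparison, 18 of 20 G2/M and mitosis genes were lower and 0 higher in each pulse, with median log2 fold changes of -0.23 and -0.25, against -0.02 and 0.00 for the 47 members. Of all genes tested 21.5% were lower at the first pulse and 20.5% at the later, and of those of at least 20 CPM 31% and 30.6%. None of the 20 was called in recovery against vehicle cells (edgeR quasi-likelihood test, 2 at an unadjusted p under 0.05). Of all genes tested 2.91% were lower and 3.03% higher there, and 3080 of 18119 had an unadjusted p under 0.05. With shares this small, nothing particular to the 20 genes is read from the absence of calls.

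**Figure D5:**
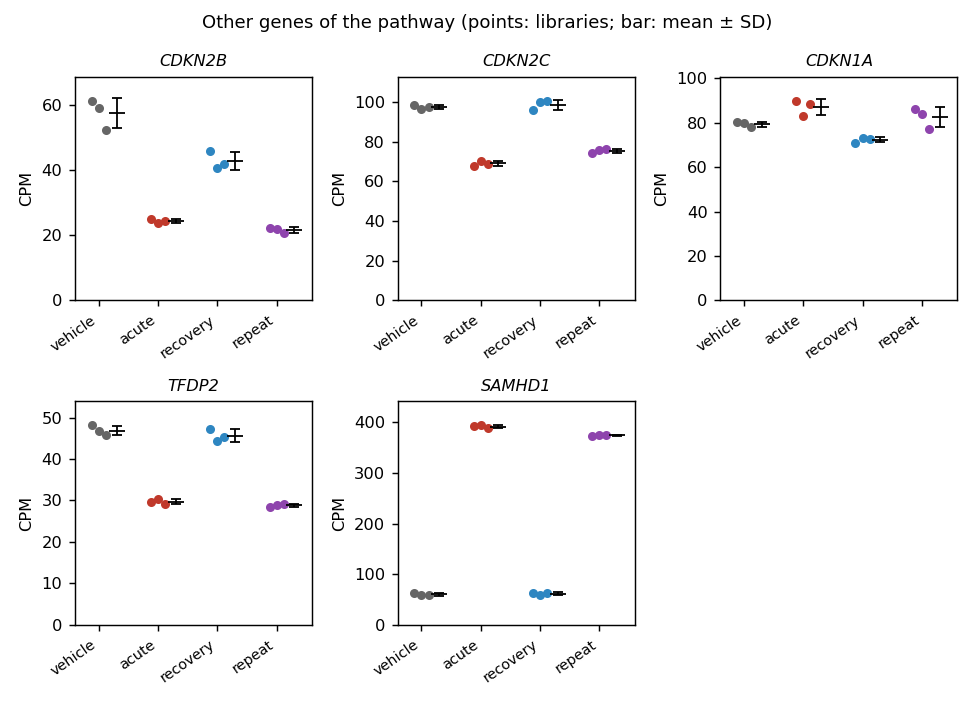
CPM of 5 further genes of the pathway in each library (points), with the mean ± SD of each group of 3 beside them and every axis starting at 0. CDKN2B, CDKN2C and TFDP2 are lower and SAMHD1 higher in acute and repeat than in vehicle and recovery libraries, CDKN1A differs less, and CDKN2B in recovery lies between vehicle and acute.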

How the data were processed

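Gene expression was measured in 12 AC16 libraries. Tools named per the submitters' processing notes are Trim Galore 0.6.10, cutadapt 4.3, STAR 2.7.11a, featureCounts 2.0.3, Picard 2.27.5 and edgeR, with build GRCh38.p13, and GENCODE release 41 is named as annotation per the labels' design text. The strand setting of counting was not given in the sources used here. Estimated counts for each gene were deposited unscaled, and 25.49% of their nonzero values are not whole. TPM values, scaled to 1000000 per library after division by gene length, were also deposited. Counts were rounded. Symbols and positions came from GENCODE release 44 (GRCh38).

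The 47 members, the lists around them and the named genes were chosen with earlier results of these data known. All 12 libraries entered 1 fit in R 4.3.3 with edgeR 4.0.16 (quasi-likelihood F test, robust, TMM scaling, filterByExpr), with the group as the only term. Benjamini-Hochberg adjustment ran over all 18119 genes tested, two-sided, with a threshold of 0.05. CPM errors are SDs over 3 libraries, and fold changes carry the fit's standard error. Values by library are given for up to 3 called members of each role class with the largest change in either pulse, and for members called in recovery against vehicle or repeat against acute. Of the further pathway lists, the 2 largest called rises and falls of each are named, except 1 gene that is not reported here. Alternatives were DESeq2 1.42.0, limma 3.58.1 on log2(TPM + 0.5), other pseudocounts and filters, other scalings, an offset for gene length, a replicate block, only the groups compared, and each library left out. The interferon element motif and the background of genes of at least 20 CPM were added after seeing the data. The fits were tested on simulated data. Deviations of same-numbered replicates of different groups had small correlations (-0.08 to 0.08). Between vehicle and acute libraries these were 0.055 to 0.076 for the same number and -0.050 to -0.004 for different numbers. Between recovery and repeat libraries they were -0.082 to 0.030 for the same number and -0.103 to 0.107 for different numbers. No label pairs the libraries, so replicate numbers were not taken as pairs in the main fit. The median squared difference between replicates was 1.78 to 2.14 times that of sampling noise alone in vehicle, acute and recovery cells. In repeat cells it was 2.53 to 2.99 times, while the fit shares 1 estimate of the spread over all groups. These values do not show whether the libraries are independent cultures, and each library was counted once.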

Additional observations from a re-analysis of the deposited data

How the results depend on the processing

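No called member changed direction under any alternative that was run. The calls that were lost included small changes and some larger ones. In repeat against recovery cells those of E2F2 (-0.33) and POLA1 (-0.24) were lost on log2 TPM and with an offset for gene length. With limma on log2 TPM, fewer members were called, and the cause was not tested. In acute against vehicle cells the count lower was 9 with pseudocounts of 0.5, 0.1 and 1, 10 with genes of a mean TPM of at least 1, and 9 with no filter, and the count higher was 5, 6, 5, 7 and 3. In repeat against recovery cells these settings gave 7, 7, 7, 7 and 4 lower and 5, 5, 5, 8 and 3 higher. In recovery against acute cells they gave 10, 10, 10, 10 and 8 higher, and no filter gave 5 lower. In repeat against vehicle cells they gave 7, 7, 7, 8 and 7 lower and 5, 5, 5, 5 and 3 higher, and in repeat against acute cells 0 higher. An edgeR offset for gene length gave 4 higher in acute against vehicle, 7 lower and 5 higher in repeat against recovery, 5 lower and 11 higher in recovery against acute, 4 higher in repeat against vehicle and 0 higher in repeat against acute cells. RLE scaling, and a fit of only the groups compared, each gave 1 lower in recovery against vehicle. Upper quartile scaling gave 20 lower and 9 higher in acute against vehicle cells, losing the calls of MCM10 and RFC2. It gave 18 lower and 13 higher in repeat against recovery and 9 and 21 in recovery against acute cells. In repeat against vehicle cells it gave 17 lower and 11 higher. Its median log2 fold change over all genes in acute against vehicle cells was -0.027, against 0.00019 with TMM. DESeq2, and edgeR with no filter on low counts, gave 2 higher in repeat against acute cells and 1 lower for the interaction, and no filter gave 1 higher for the interaction (E2F1). The replicate block gave 2 higher in repeat against acute cells and 1 lower for the interaction (CCND1 in both as the added call), and moved no other count of members by over 1.5 times. With the block, same-numbered libraries share only a number in the labels. Leaving out 1 library at a time gave these ranges for lower and higher: 16 to 18 and 8 to 12 in acute against vehicle, 11 to 13 and 12 to 13 in repeat against recovery, 9 to 11 and 16 to 17 in recovery against acute, 0 to 1 and 1 to 1 in recovery against vehicle, 0 to 0 and 0 to 5 in repeat against acute, 11 to 17 and 12 to 15 in repeat against vehicle, and 0 to 1 and 0 to 0 for the interaction. Without acute replicate 2, which stood apart, acute against vehicle cells gave 16 lower and 11 higher. In all 25 settings E2F1, E2F2, GINS4, MCM2, MCM6, TK1, TYMS and UHRF1 (8 members) were lower and CCND1, CCNE1 and ORC6 (3) higher in acute against vehicle cells, and E2F1, GINS4, TYMS and UHRF1 (4) were lower and the same 3 higher in repeat against recovery cells. CCNE1, the member with the fewest CPM, and CDK6 had the largest standard errors at the first pulse (0.11 each). The share of promoters with an E2F-type match stayed between 39.0% and 56.1% over the window and motif tried.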

Other observations

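The helicase subunit MCM4 had a level per gene length that its partners did not share. In vehicle cells it was at 1867 ± 41.98 TPM (SD, n = 3), while MCM2, MCM3, MCM5, MCM6 and MCM7, which sit with it in a ring of 1 copy each, were at 132, 86.9, 179, 36.3 and 121 TPM. In CPM, which takes no account of length, MCM4 was at 576 and the other 5 between 130.1 and 377. CPM divided by TPM, which moves with the gene length used in the deposited table, was 0.309 for MCM4, the lowest of the 47 members, and 1.94 to 3.58 for the other 5. No source used here gives the lengths behind the TPM table.

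PRIM1 was the member whose first-pulse change depended most on the scale, at -0.09 on counts and -0.38 on log2 TPM. It overlaps 3 other protein-coding genes.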
